A study of Danio rerio with 4 samples.

Results

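The polyadenylated RNA of wild-type zebrafish embryos at 6 somites, 12 h after fertilization, was described gene by gene from the 2 control libraries of a study that compared such embryos with tbx1 mutants. Genes were taken if the authors' estimate had the status OK in both controls and if the gene's locus was at least 300 bp long, which kept 27955 of the 32538 genes in the table. Of the genes left out, 4448 had a shorter locus and 135 had another status in 1 or both controls. The choice set no limit on expression level, though the status may depend on it, and the 2 mutant libraries were not used.

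Zebrafish form somites, the blocks of mesoderm that give rise to muscle and vertebrae, in sequence from head to tail. At the stage sampled here the brain is a neural plate and keel divided into its main regions, the neural crest is being specified, and heart, blood and vessel progenitors lie as bilateral fields that have not yet formed a beating heart. The embryo sits on a yolk cell whose syncytial layer is a source of serum proteins, and it is covered by an outer enveloping layer that is rich in keratins. Muscle contraction, vision, pigment, circulation and digestion begin later.

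The labels call both libraries wild type and the tissue total embryo. The tip of the tail and some adjoining yolk had been cut away for genotyping before RNA was taken from the remainder, so part of the last-formed tissue is missing, to an extent that the files do not show. The labels do not say whether a library held 1 embryo or several, nor how they were related to the mutants, so the spread between the controls may be technical. Levels are FPKM, that is fragments scaled by transcript length and by the number of mapped fragments, as the authors deposited them, and are given for control 1 first and control 2 second. Because FPKM is corrected for length, levels of different genes can be set beside each other, except where the deposited estimate is weak, as described below. In RNA from whole embryos, fewer cells of a type and less RNA per cell cannot be told apart.

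A gene is called detected here if it had at least 1 FPKM in both controls, silent if it had at most 0.1 FPKM in both, and abundant if it had at least 100 FPKM in both. Of the 27955 genes, 12754 were detected, or 45.6%, and 8354 were silent, or 29.9%. The other 6847 lay between or differed in class between the libraries. With any status allowed, 12758 genes were detected and 8420 were silent. Silent is a name for a range and does not show that no RNA was made, and 4137 genes were listed at 0 in both controls. The median level over all genes was 0.745 FPKM in control 1 and 0.702 FPKM in control 2, while the median of the detected genes was 8.78 FPKM, with quartiles at 3.43 and 26.6 FPKM. Only 953 genes, or 3.41%, were abundant, and 147 reached 1000 FPKM in both controls.

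Few genes held most of the summed FPKM, which is corrected for length and so is not a measure of RNA mass. The 150 genes with a mean of at least 1000 FPKM were 0.537% of all genes and held 51.8% of the summed FPKM, and in each library 137 genes were enough to reach 50% of the sum. The 100 highest genes held 42.4% of the sum in control 1 and 42.6% in control 2. With genes of any locus length in the sum, the share was 57.1%. At the other end, the 9099 kept genes with a mean under 0.1 FPKM together held 0.0233% of the summed FPKM of kept genes.

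**Figure D1:**
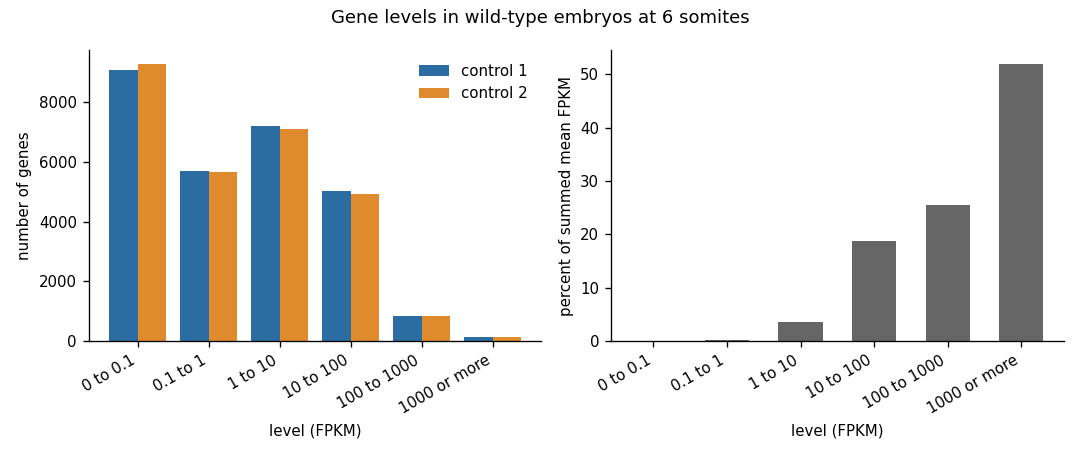
The left panel counts genes in 6 ranges of FPKM in each control, and the right panel gives the percent of summed FPKM (mean of the 2 controls) that the genes of each range held. The lowest range holds the most genes in both controls (9075 and 9256), while the range of 1000 FPKM or more, with 150 genes by mean, holds 51.8% of the sum.

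The most abundant messages served protein synthesis and respiration. Among the 25 genes with the highest lower value of the 2 controls, 13 encoded cytosolic ribosomal proteins and 5 were encoded in the mitochondrial genome. The cytosolic ribosomal protein genes, 83 by symbol, held 27.8% of summed FPKM in control 1 and 27.1% in control 2, and 82 of them were detected. With genes of any locus length in the sum, the share was 16.5%. Their median mean level was 2835 FPKM. The exception was rps8b, the copy of a small-subunit protein gene whose partner rps8a is described with the duplicate genes. The highest ribosomal message was rps2, at 5841 and 5616 FPKM (chr3:18127816-18132119, Zv9 build), followed by rps12 at 5395 and 5133 FPKM.

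The 11 mitochondrially encoded protein genes were all abundant and held 4.90% and 5.03% of the sum. Subunit 2 of cytochrome c oxidase, the terminal enzyme of the respiratory chain, led them with mt-co2 at 7706 and 9138 FPKM. The third subunit gene, mt-co3, stood at 6794 and 7503 FPKM, and mt-co1 at 6849.9 and 5671 FPKM. For some of these genes the deposited value and its own 95% interval were apart. For mt-co2 in control 1 the interval ran from 4141 to 4195 FPKM, below the value. With interval midpoints in place of the values, mitochondrially encoded genes held 3.21% of the sum, and with loci of at least 1000 bp alone 1.72%.

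Other genes at the top acted in chromatin, RNA binding and lipid transport. hmga1a, a high mobility group chromatin protein, had 5443 and 5660.3 FPKM (chr23:3765200-3773434), and cirbp, a cold-inducible RNA-binding protein, had 5460.4 and 6188 FPKM. tpt1, the translationally controlled tumour protein gene, had 4218 and 4151 FPKM. The 2 neighbouring loci that the table calls zgc:161979, now afp4, an apolipoprotein-like gene, had 6412 and 6564 FPKM in the shorter locus and 2873 and 3107 FPKM in the longer one. Since the copies lie side by side on chromosome 16, the division of reads between them is uncertain.

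Some of the highest values rest on weak estimates. The first gene in order, si:dkey-151g10.6, was listed at 9261 and 9863 FPKM with intervals that end at 6856 and 7171 FPKM. POLR1D, named after a shared subunit of RNA polymerases I and III, was listed at 7810.1 and 15281 FPKM, with an interval in control 1 from 72.0 to 23199 FPKM. Of all values of genes with a mean of at least 1 FPKM, 26.6% in control 1 and 25.1% in control 2 lay outside their own interval, yet the median ratio of value to interval midpoint was 0.9999 in both. In 75 of 13116 such genes the value was more than 2 times the midpoint in both controls.

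Listed genes of the early embryo were detected more often than listed genes of later tissues. In 16 lists of genes that mark early tissues and cell types, 232 of 287 different genes were detected, or 80.8%, and 11 were silent, with a median of 12.1 FPKM. In 11 lists of differentiated tissues, 44 of 283 genes were detected, or 15.5%, and 138 were silent, or 48.8%, with a median of 0.0798 FPKM. In 4 lists of general cell functions 100 of 120 genes were detected, with a median of 49.9 FPKM. Over all 27955 genes the same figures are 45.6% detected, 29.9% silent and a median mean of 0.733 FPKM. The members were chosen with earlier results of these data known, which can widen the contrast between lists. The lists are descriptions, and no test was made of them.

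**Figure D2:**
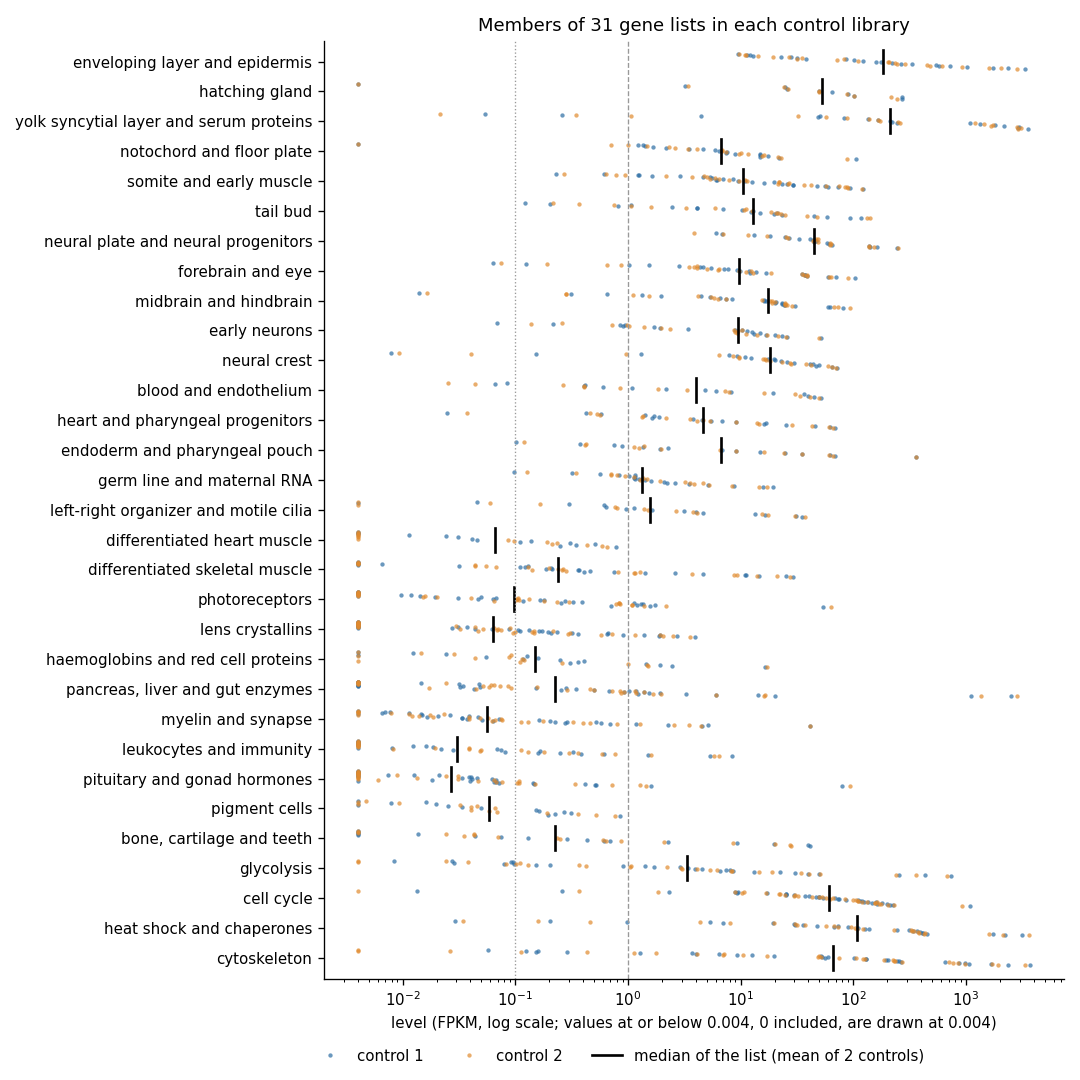
Each point is 1 gene of a list in control 1 (blue) or control 2 (orange), on a log axis of FPKM, with values at or below 0.004 FPKM drawn at 0.004. Black bars are list medians and the dashed and dotted lines mark 1 and 0.1 FPKM. Medians of the lists of early tissues run from 1.34 FPKM for germ line and maternal RNA to 213 FPKM for the yolk syncytial layer, and those of differentiated tissues from 0.0272 to 0.240 FPKM.

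The outer cell layers had the highest levels of any embryonic tissue list other than the yolk. All 23 measured genes of the enveloping layer and epidermis were detected and 13 were abundant, with a median of 183 FPKM. Keratins, the intermediate filament proteins of epithelia, led the list: krt4 had 3366 and 2854 FPKM, krt5 had 2375 and 2054 FPKM and krt8 had 1743 and 1596 FPKM. The basal keratinocyte regulator tp63 stood near the lower end at 37.9 and 31.5 FPKM. The lowest member was klf2b, a Krüppel-like factor gene, at 9.51 and 9.69 FPKM. In the keratin family by symbol, 14 of 23 genes were detected and none was silent. Of the 23 detected epidermal genes only 6 were higher in control 2, and their median log2 ratio of control 2 to control 1 was -0.14, against -0.02 over all detected genes.

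In the hatching gland list 9 of 10 genes were detected. The gland makes the proteases that later dissolve the egg envelope, but the list also holds other genes. Its highest member was xbp1, at 272 and 246 FPKM, and foxa3 is in the endoderm list too. The hatching enzyme gene he1a had 272 and 214 FPKM, and its neighbour in name he1b had 64.2 and 49.5 FPKM. The gland's transcription factor klf17, called klf4 in the table, had 49.1 and 49.7 FPKM. he2, now he1.3, was listed at 0 in both controls. he1a and he1b are close copies, and he2 lies beside them on chromosome 22. Reads could have been divided among these genes, so the level of each is uncertain.

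Genes of the yolk syncytial layer and of serum proteins had the highest median, 213 FPKM, with 16 of 18 detected and 12 abundant. The apolipoprotein genes apoa1a, at 3537 and 2878 FPKM, and apoeb, at 2967 and 2849.9 FPKM, stood among the highest messages of the embryo. Of the 2 afp4 loci described above, the list holds only the longer, lower one, at 2873 and 3107 FPKM. Other carriers followed, among them the transferrin gene tfa at 1088 and 1214 FPKM. The thyroid hormone carrier ttr was low, at 0.259 and 0.349 FPKM. mxtx2, a homeobox gene that acts in the forming syncytial layer before gastrulation, was silent at 0.0537 and 0.0213 FPKM. Some yolk was cut away with the tail, and its amount per embryo is not known.

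Genes listed for notochord and floor plate were mostly detected at moderate levels. Of 19 such genes 17 were detected, with a median of 6.69 FPKM. ntla, the Brachyury gene of the notochord and tail bud, had 14.97 and 21.3 FPKM, and shha, which encodes the Sonic hedgehog signal of both structures, had 8.94 and 9.71 FPKM. The highest member was fkbp9, a prolyl isomerase of the secretory pathway, with 106 and 87.2 FPKM. The lowest member was foxa, listed at 0 in both controls. Next above it were cmn, at 1.36 and 0.705 FPKM, and ntn1b, at 1.22 and 1.01 FPKM.

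Genes of somite formation were on. Of 28 somite and early muscle genes 24 were detected and none was silent, with a median of 10.4 FPKM. ripply1, which ends the segmentation programme as a somite forms, had 121 and 119 FPKM, and meox1, a homeobox gene of somites, had 94.4 and 88.9 FPKM. The oscillating clock genes her1 and her7 had 12.7 and 21.7 FPKM and 6.06 and 10.8 FPKM. Among the myogenic regulators myf5 was highest, at 29.2 and 41.9 FPKM, myod1 had 6.98 and 6.47 FPKM, and myog, the last of the series to act, had 1.23 and 0.936 FPKM. The dermomyotome genes pax7a and pax7b did not reach 1 FPKM in both controls, at 0.616 and 0.269 FPKM and at 1.25 and 0.787 FPKM.

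Tail bud genes were present although the tip of the tail had been removed. Of 19 such genes 15 were detected, with a median of 12.8 FPKM. The highest were vox, a ventral homeobox repressor, at 117 and 133 FPKM and cdx4, a caudal-type homeobox gene, at 93.6 and 140.0 FPKM. tbx16, which directs cells out of the tail bud, had 4.12 and 5.96 FPKM. The posterior Hox gene hoxa13b was the lowest, at 0.121 and 0.217 FPKM.

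The control libraries differed in the balance of several lists. Among detected genes 45.0% were higher in control 2, but 16 of 24 detected somite genes and 9 of 15 detected tail bud genes were, with median log2 ratios of 0.24 and 0.10. Other lists were above 45.0% as well. Germ line and maternal RNA had 9 of 14 detected genes higher in control 2, at a median of 0.09, and pancreas, liver and gut 6 of 9, at 0.11. Notochord and floor plate had 10 of 17, at a median of 0.06, the yolk list had 8 of 16, at 0.02, and the neural plate 9 of 18, at 0.003. In contrast, 1 of 16 detected neural crest genes and 2 of 14 detected genes of early neurons were higher in control 2, with medians of -0.17 and -0.22. Lists below 45.0% also included blood and endothelium with 1 of 9, at -0.19, and differentiated skeletal muscle with 0 of 8, at -0.24. The epidermal list, with 6 of 23 at -0.14, was below it too. Of the lists of general cell functions, glycolysis had 5 of 18, at -0.16, and cytoskeleton 8 of 26, at -0.11. Cell cycle had 12 of 32, at -0.07, and heat shock and chaperones 11 of 24, at -0.05. Bone, cartilage and teeth had 1 of 5, at -0.13, and heart and pharyngeal progenitors 4 of 14, at -0.08. Endoderm and pharyngeal pouch had 3 of 11, at -0.02. How much tail was cut from each embryo, and its part in these differences, was not tested.

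The neural plate was represented by every gene listed. All 18 genes were detected, 4 of them abundant, with a median of 44.8 FPKM. The SoxB1 genes, which keep cells in the neural progenitor state, were led by sox19a at 242 and 248 FPKM and sox3 at 141 and 139 FPKM. The Hairy-related repressor gene her9 had 162 and 152 FPKM. zic2b, a zinc finger gene of the dorsal neural plate, had 138 and 136 FPKM. At the low end stood sox1a, at 6.87 and 7.02 FPKM, and zic5, at 6.04 and 3.82 FPKM. All 7 Zic genes of the table were detected.

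Regional brain genes were mostly on. In the list for forebrain and eye 19 of 23 genes were detected, with a median of 9.73 FPKM. The preplacodal and telencephalic border gene dlx3b had 104 and 88.8 FPKM, and six3b and rx3, which specify the forebrain and the eye field, had 70.8 and 61.3 FPKM and 59.7 and 63.7 FPKM. The ventral eye gene vax2 was silent, at 0.0628 and 0.0745 FPKM, and emx1 had 0.124 and 0.190 FPKM.

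In the midbrain and hindbrain 20 of 23 genes were detected, with a median of 17.5 FPKM. irx7, an Iroquois gene of the hindbrain, had 81.1 and 93.9 FPKM, and egr2b, the Krox20 gene of rhombomeres 3 and 5, had 30.1 and 28.6 FPKM. Engrailed genes of the midbrain-hindbrain boundary differed in level: eng2b had 16.1 and 19.1 FPKM, eng2a had 8.41 and 7.42 FPKM, eng1b had 0.312 and 0.281 FPKM and eng1a had 0.0141 and 0.0166 FPKM. The order of these 4 genes was the same in both controls, with no overlap.

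First neurons and neural crest were also seen. Of 19 genes of early neurons 14 were detected and none was silent, with a median of 9.54 FPKM. The proneural gene neurog1 had 25.9 and 25.3 FPKM, and elavl3, a marker of postmitotic neurons, had 14.97 and 9.32 FPKM. Of 19 neural crest genes 16 were detected, with a median of 18.4 FPKM. msxb had 71.9 and 70.3 FPKM, tfap2a had 64.9 and 64.4 FPKM and foxd3 had 49.3 and 42.4 FPKM, all transcription factor genes of the neural plate border or premigratory crest. The pigment cell genes mitfa, at 0.151 and 0.0401 FPKM, and ltk, at 0.00787 and 0.00930 FPKM, were the lowest of the list.

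Early regulators of blood, vessels and heart were among the detected genes of mesoderm. Of 15 blood and endothelial genes 9 were detected. The haemangioblast regulators etv2, at 44.8 and 41.5 FPKM, and lmo2, at 39.6 and 33.8 FPKM, were high in the list, while runx1, the gene of definitive haematopoiesis, had 0.0852 and 0.0255 FPKM and the endothelial cadherin gene cdh5 had 0.0667 and 0.0440 FPKM. Of 18 heart and pharyngeal progenitor genes 14 were detected, with a median of 4.68 FPKM. The zinc finger genes gata6 and gata5, which also act in endoderm, had 68.5 and 65.7 FPKM and 62.1 and 60.6 FPKM. nkx2.7 had 45.6 and 43.2 FPKM, far above the related cardiac homeobox gene nkx2.5 at 1.69 and 1.35 FPKM. The gene mutated in the study, tbx1, had 9.08 and 9.14 FPKM. tbx5a, a T-box gene of heart and fin fields, was silent at 0.0250 and 0.0371 FPKM.

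The lists for endoderm, the germ line and the left-right organizer had medians of 6.67, 1.34 and 1.56 FPKM. Of 15 endoderm genes 11 were detected, with foxa3 at 24.8 and 24.5 FPKM and foxa2 at 14.9 and 16.03 FPKM, while the early endoderm genes sox17 and sox32 had 0.895 and 1.39 FPKM and 0.372 and 0.423 FPKM. The highest member, prdx5, a peroxiredoxin gene, is not limited to endoderm. Of 20 germ line and maternal genes 14 were detected and none was silent. At a limit of 0.5 FPKM 18 would be called detected, and at 2 FPKM 8. Among these genes nanos3 had 8.67 and 8.35 FPKM, and dazl and buc were lowest, at 0.316 and 0.347 FPKM and at 0.0972 and 0.126 FPKM. Of 15 organizer and cilia genes 8 were detected. The left-side gene spaw, a Nodal ligand, was listed at 0 in control 1 and at 0.0598 FPKM in control 2. The tip of the tail had been cut away, and its part in the levels of the organizer list was not tested.

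Genes of working heart muscle were below the detection limit throughout. None of 15 was detected and 8 were silent, with a median of 0.0665 FPKM and a highest mean of 0.716 FPKM, that of the titin gene ttnb. The myosin light chain gene myl7, a general marker of cardiomyocytes, had 0.0241 FPKM in control 1 and was listed at 0 in control 2. nppa, cmlc1 and bmp10 were listed at 0 in both controls. At a limit of 0.5 FPKM 1 of the 15 genes would be called detected.

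Skeletal muscle was a partial exception among the differentiated tissues, since 8 of 26 genes were detected. The troponin gene tnni2b.1 had 29.4 and 27.6 FPKM, the actin gene actc1b had 25.02 and 21.0 FPKM and the tropomyosin gene tpma had 14.5 and 14.001 FPKM. Fast myosin heavy chain genes were at the other end, with myhz2 and myhz1.2 listed at 0 in both controls. All 8 detected genes were lower in control 2, with a median log2 ratio of -0.24. The muscle actins are near-identical in sequence, so single levels within that group are uncertain.

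Sensory genes were low or silent. Of 31 photoreceptor genes 4 were detected, or 7 by control 1 alone and 1 at a limit of 2 FPKM, and 13 were silent, and the rod opsin gene rho was listed at 0 in both controls. A single member stood far above the rest: gngt2a, a transducin gamma gene of cones, had 54.2 and 63.8 FPKM, while the next highest, rcv1, had 1.56 and 1.39 FPKM. Of 38 lens genes, mostly crystallins, 5 were detected, the highest being cryba2b at 3.95 and 3.57 FPKM, and 20 were silent. Many crystallin genes are tandem copies whose reads cannot be divided with certainty.

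Blood proteins, gut, liver and pancreas were mostly low as well. Of 16 genes of haemoglobins and red cells 3 were detected, led by the embryonic alpha globin gene hbae3 at 16.4 and 17.2 FPKM. Of 34 genes of pancreas, liver and gut 9 were detected, or 14 at a limit of 0.5 FPKM and 5 at 2 FPKM. In this list 2 fatty acid binding protein genes were among the abundant genes of the embryo: fabp1b.1 had 2529 and 2825 FPKM and fabp2 had 1116 and 1347 FPKM. The insulin gene copies differed, with insb at 14.3 and 16.4 FPKM and ins at 0 and 0.0730 FPKM. fabp10a, a hepatocyte marker, and ctrb1, a chymotrypsinogen gene, were listed at 0 in both controls.

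Other lists of differentiated tissues had isolated high members. Membership of a list does not show which tissue made a message. Of 32 myelin and synapse genes 5 were detected, with mbpb, a myelin basic protein gene, at 41.6 and 41.7 FPKM and its duplicate mbpa listed at 0 in both controls. Of 32 hormone and steroid genes 2 were detected, with cyp11a1, which encodes the side chain cleavage enzyme that starts steroid synthesis, at 79.6 and 93.3 FPKM. Growth hormone, gh1, and the pituitary subunit genes cga and fshb were listed at 0 in both controls. Of 27 leukocyte genes 3 were detected, with nccrp1, a cytotoxic cell receptor gene, highest at 8.38 and 6.44 FPKM. None of 15 pigment cell genes was detected. Of 18 bone and cartilage genes 5 were detected, with the Sox gene sox9b highest at 41.5 and 28.2 FPKM. Also detected were sp7, the osterix gene of osteoblasts, at 19.7 and 20.2 FPKM and sparc, a matrix protein gene, at 39.7 and 27.2 FPKM.

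Genes of the cell cycle were high. Of 34 such genes 32 were detected and 12 were abundant, with a median of 61.3 FPKM. pcna, the sliding clamp of DNA replication, had 1079 and 924 FPKM, and the mitotic cyclin gene ccnb1 had 213 and 231 FPKM. The cyclin gene ccna1 had 0.258 and 0.367 FPKM, and the inhibitor gene cdkn1bb had 0.0136 FPKM in control 1 and 0 in control 2. Of 27 chaperone genes 24 were detected. The small heat shock gene hspb1 had 3158 and 3642 FPKM and the constitutive hspa8 had 2233 and 2121 FPKM, while the stress-induced hsp70l stood at 0.987 and 0.463 FPKM. Among cytoskeletal genes 26 of 31 were detected, led by the cytoplasmic actins actb2 at 3712 and 3348 FPKM and actb1 at 2369 and 1935 FPKM.

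Glycolytic enzymes were uneven, with 18 of 28 genes detected and a median of 3.32 FPKM. aldoaa, an aldolase gene, had 729.8 and 684 FPKM, gapdh had 432 and 358 FPKM, and the lactate dehydrogenase gene ldhba had 256 and 238 FPKM. The neuronal enolase gene eno2 had 0.00839 FPKM in control 1 and 0 in control 2, and the muscle phosphofructokinase gene pfkmb had 0.0273 and 0.0241 FPKM.

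Gene families defined by symbol ranged from families with every member detected to families with none. Machinery families lay at the top: 62 of 63 splicing factor and hnRNP genes, 77 of 80 mitochondrial ribosomal protein genes, 71 of 75 translation initiation factor genes and 43 of 49 proteasome genes were detected. Their median levels were 264, 44.4, 56.9 and 134 FPKM. The highest splicing-related messages were hnrnpa0l at 2025 and 2239 FPKM and hnrnpab at 1598 and 1943 FPKM. Of 54 histone genes 38 were detected, but their median was only 2.05 FPKM, while the replication-independent histone genes h3f3a, at 3236 and 3345 FPKM, and h3f3d, at 2722 and 2606 FPKM, were high. Libraries were made from polyadenylated RNA, and replication-dependent histone messages lack such tails, so their levels are not comparable with those of other genes.

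**Figure D3:**
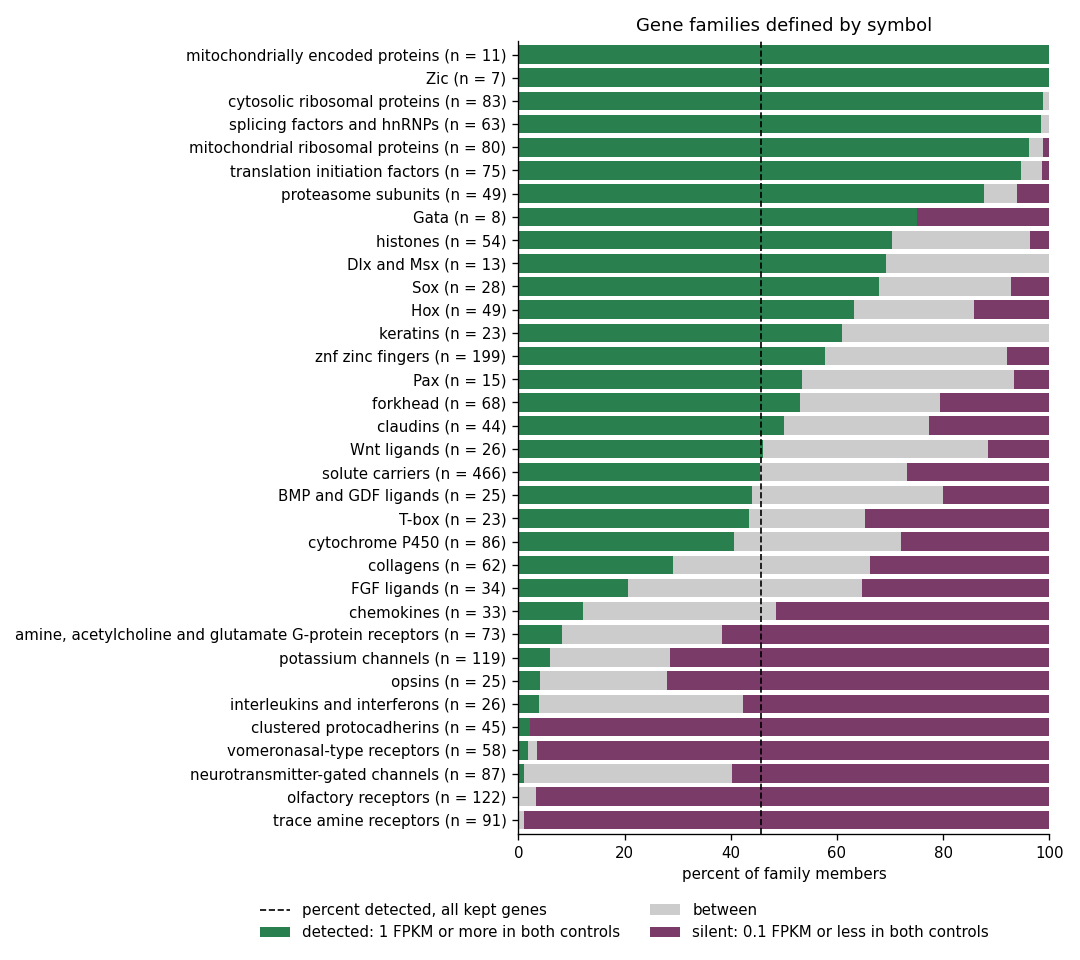
Bars give, for 34 families, the percent of members that were detected (green), silent (purple) or between (grey), with the number of members in brackets. The dashed line is the 45.6% detected over all kept genes. Mitochondrially encoded and Zic genes were all detected, whereas 0 of 122 olfactory receptor and 0 of 91 trace amine receptor genes were.

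Families of developmental regulators differed in the share of members detected, which was 45.6% over all genes. Of Sox genes 19 of 28 were detected, of forkhead genes 36 of 68, of Pax genes 8 of 15, of Dlx and Msx genes 9 of 13, of Gata genes 6 of 8 and of T-box genes 10 of 23. The highest T-box gene was tbx6, which acts in presomitic mesoderm, at 60.2 and 87.4 FPKM, and the highest Pax gene was pax8, of the otic placode and kidney fields, at 24.9 and 24.7 FPKM. Genes of secreted ligands followed. Of 34 FGF genes 7 were detected, led by fgf8a at 23.1 and 24.8 FPKM, of 26 Wnt genes 12, led by wnt11r at 40.4 and 35.1 FPKM, and of 25 BMP and GDF genes 11, led by bmp2b at 16.9 and 15.2 FPKM. Of 62 collagen genes 18 were detected, with the basement membrane collagen gene col18a1 highest at 54.2 and 42.0 FPKM.

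Families of neural excitability and immunity were nearly off. Only 1 of 87 genes of neurotransmitter-gated channels was detected, with means up to 1.16 FPKM, and 6 of 73 genes of amine, acetylcholine and glutamate receptors. Of 119 potassium channel genes 7 were detected and 85 were silent. The highest was kcnk6, a 2-pore channel gene, at 61.4 and 67.2 FPKM. kcnk1a followed at 14.1 and 16.5 FPKM and kcnk5a at 9.15 and 9.66 FPKM. Of 26 interleukin and interferon genes 1 was detected, and of 33 chemokine genes 4, with the guidance chemokines cxcl12b at 61.9 and 64.3 FPKM and cxcl12a at 40.5 and 47.2 FPKM far above the others.

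Chemosensory receptors and clustered protocadherins were silent almost as a whole. Of 122 olfactory receptor genes 118 were silent and 112 were listed at 0 in both controls. Of 91 trace amine receptor genes 90 were silent. Of 58 vomeronasal-type receptor genes 56 were silent and 1 was detected, si:ch1073-155h21.1, now olfcb1, at 6.22 and 4.21 FPKM. Of 45 clustered protocadherin genes, which give neurons surface identities, 44 were silent and 1, pcdh1g30, had 2.64 and 2.29 FPKM. Sequences were not compared, and where copies are alike, reads may have been divided among them.

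The Hox genes, which pattern the body axis and lie in clusters in the order of their action, were divided by paralog group. In groups 1 to 4, which act in hindbrain and anterior trunk, 13 of 14 genes were detected. In groups 5 to 8 it was 10 of 12 and in groups 9 and 10 it was 8 of 9. In groups 11 to 13, which act last and most posteriorly, none of 14 was detected, and no single value exceeded 0.749 FPKM. The median was 7.78 FPKM in groups 9 and 10 and 0.0678 FPKM in groups 11 to 13.

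hoxb1b, which acts first in the hindbrain, was the highest Hox gene at 59.4 and 73.0 FPKM. It was followed by hoxc3a at 37.7 and 54.3 FPKM and hoxb7a at 20.1 and 34.6 FPKM. Every one of the 9 genes of groups 9 and 10 was higher in control 2, and 8 of 12 in groups 5 to 8 and 7 of 14 in groups 1 to 4. These counts include genes that were not detected, whereas the share of 45.0% given above covers detected genes only. Of the genes of groups 9 and 10, hoxb10a, for example, had 6.99 and 11.1 FPKM. In groups 11 to 13 it was 8 of 14, but none of these genes was detected, and directions at such low levels are uncertain. Tail tissue had been removed, and its part in the low levels of groups 11 to 13 was not tested.

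**Figure D4:**
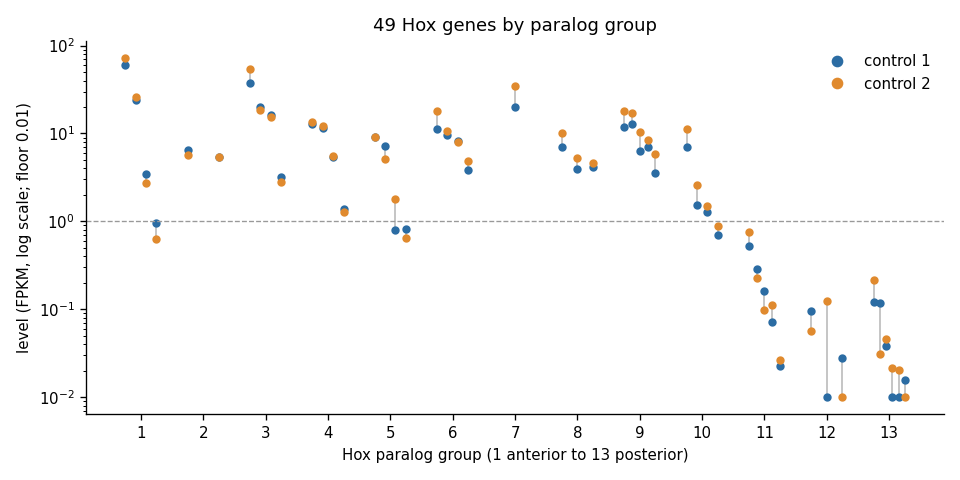
Points give the level of each of 49 Hox genes (FPKM, log axis, with a floor of 0.01) in control 1 (blue) and control 2 (orange) by paralog group, and grey lines join the values of a gene. Groups 1 to 10 lie mostly above the dashed line at 1 FPKM, up to 73.0 FPKM, and all values of groups 11 to 13 lie below it.

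Many pairs of duplicate genes were unequal in level. Zebrafish descend from a fish whose genome was duplicated, and many surviving copies carry the same symbol with a final a or b. Of 1592 such pairs both copies were detected in 658, or 41.3%, 1 copy in 478, or 30.03%, and neither in 456, or 28.6%. In 147 pairs 1 copy was detected while the other was silent. Among the 1153 pairs whose higher copy had a mean of at least 1 FPKM, 528 were at least 4-fold apart in the same direction in both controls, or 45.8%, on the scale of log2(FPKM + 0.5). Pairs entered this set through their higher copy alone, which raises the unequal share. With no minimum level the count was again 528, of all 1592 pairs. It could not change, because a 4-fold ratio on this scale already needs a higher copy above 1 FPKM. The median difference between copies was 1.89 on this log2 scale, with quartiles of 0.95 and 3.26. In 1120 of the 1153 pairs the direction was the same in both controls, and copy a was the higher in 628, or 54.5%. Within 1.5-fold were 186 pairs, or 16.1%. Pairs between the limits of 1.5-fold and 4-fold are in neither count, so the 2 counts are not like measures.

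**Figure D5:**
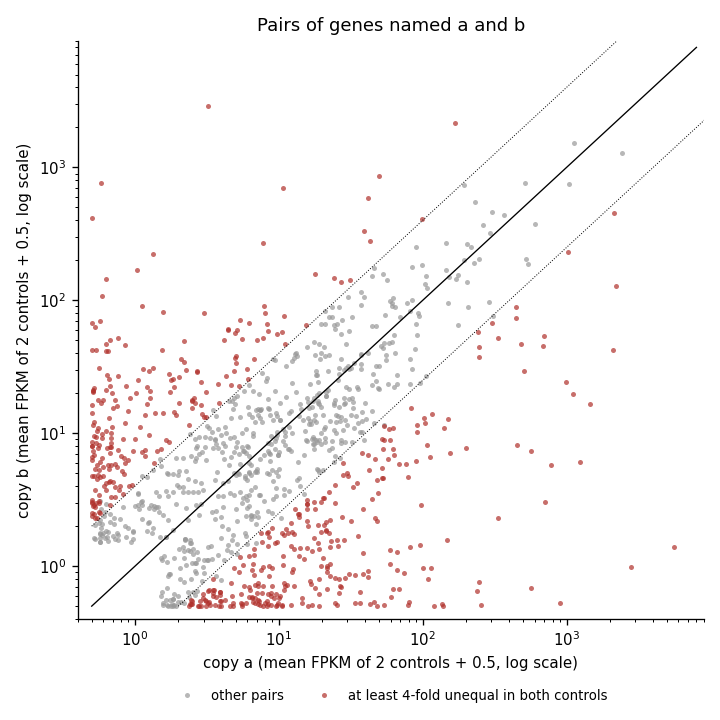
Each point is a pair of genes with symbols that end in a and b, drawn at the mean FPKM + 0.5 of copy a and copy b on log axes, for the 1153 pairs with a higher copy of at least 1 FPKM. The solid line marks equal levels and the dotted lines a 4-fold difference, and the 528 pairs that were 4-fold unequal in both controls are red.

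The ranking of pairs by log2(FPKM + 0.5) admits to its top only pairs with an abundant copy, so the level of the higher copy in the 15 most unequal pairs is no finding. hmga1a, described above, stood against hmga1b at 0.741 and 1.06 FPKM, log2 ratios of 12.10 and 11.83. The ribosomal gene rps8a had 2849 and 2720.0 FPKM and rps8b had 0.597 and 0.375 FPKM, log2 ratios of 11.34 and 11.60. ctsba, a cathepsin B protease gene, had 894 and 917 FPKM against 0.0106 and 0.0502 FPKM for ctsbb. The pseudocount draws such ratios toward 0, and they depend on it where a copy is this low.

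The direction could favour either copy. For the mitochondrial phosphate carrier slc25a3b had 798 and 737 FPKM against 0.0447 and 0.124 FPKM for slc25a3a. For apolipoprotein E the b copy was given above, while apoea had 4.41 and 1.06 FPKM. For cytochrome c, cycsb had 372 and 459 FPKM and cycsa was listed at 0 in both controls. The folate enzyme gene mthfd1b had 149.6 and 138 FPKM, and mthfd1a had 0.152 and 0.102 FPKM.

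In other pairs copy a carried the messages. acp5a, an acid phosphatase gene, had 524 and 610.1 FPKM against 0.211 and 0.167 FPKM for acp5b. eif3ba, of a translation initiation factor, had 246 and 258 FPKM against 0.0112 and 0.0133 FPKM for eif3bb. oaz2a, an antizyme gene that limits polyamine synthesis, had 235 and 244 FPKM and oaz2b had 0.222 and 0.0888 FPKM. Metabolic genes followed the same form: ldhbb stood at 0.151 and 0.369 FPKM and aldoab at 2.91 and 2.22 FPKM beside the high copies named among the glycolytic enzymes. ctps1a, of CTP synthesis, had 124 and 146 FPKM, and its partner ctps1b had 0 and 0.0378 FPKM. The b copies of znrf2, a ubiquitin ligase gene, and of rnasek, a ribonuclease gene, were listed at 0 in both controls while the a copies had 131 and 143 FPKM and 109.8 and 129 FPKM.

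Other pairs were balanced. The tfdp1 copies, partners of the E2F cell cycle factors, had 85.7 and 77.7 FPKM for copy a and 83.0 and 81.8 FPKM for copy b. The copies of nr2f6, an orphan nuclear receptor gene, had 34.1 and 31.03 FPKM and 35.2 and 31.7 FPKM. The ubiquitin-conjugating enzyme genes ube2l3a and ube2l3b had 138 and 167 FPKM and 144 and 152 FPKM. In these pairs the levels of the copies overlapped between the libraries or differed by less than the spread of the libraries. arglu1, aldh9a1, fbxl14, ube2k and ivns1abp completed the 8 most balanced of 149 pairs with both copies at 20 FPKM or more, with mean log2 ratios from -0.05 to 0.05.

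By chromosome, chromosome 4 stood apart. Of its 1588 genes 27.1% were detected, against 40.5% to 52.8% on the other numbered chromosomes. With no minimum locus length the share on chromosome 4 was 17.7%, against 42.4% on the other numbered chromosomes together. The low share lay mostly in a single stretch: between 30 and 55 Mb (Zv9) 35 of 671 genes were detected, or 5.22%, and 330 were silent, while elsewhere on the chromosome 43.1% of 917 genes were detected. All 5 of the 5-Mb bins with at least 20 genes and under 10% detected, of 279 such bins in the genome, lay in that stretch, and their shares ran from 2.31% to 8.03%. The bounds of the stretch were set after these shares were seen.

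The stretch was also unlike the rest in its annotation. Clone-based names or none were given to 98.2% of its genes, against 28.0% on the other numbered chromosomes. Among genes with such names, 5.01% were detected in the stretch, 21.7% elsewhere on chromosome 4 and 21.8% on the other numbered chromosomes. Silent were 49.2%, 42.4% and 51.1% in the same order, with medians of 0.0787, 0.118 and 0.0613 FPKM. Genes with such names were thus less often detected in the stretch than on the other numbered chromosomes, but not more often silent. Its highest gene, si:dkeyp-85d8.3 (chr4:39244258-39244983), had 10.5 and 11.6 FPKM. Copies of repeated genes, whose reads cannot be placed with certainty, were not separated here.

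Silent genes came in longer unbroken rows than detected genes. Of rows of neighbouring genes that were all silent, 60 held at least 10 genes and 17 at least 20, while 54 rows of detected genes held at least 10 and none reached 20. The longest silent row was the cluster of trace amine receptors on chromosome 10 (chr10:41698366-42135363), with 85 genes, 82 of them listed at 0 in both controls. The next was the protocadherin 2 cluster on chromosome 14 (chr14:2316956-3002787), with 63 genes. Others held nitr immune-type receptors on chromosome 7 with 32 genes, vomeronasal-type receptors on chromosome 18 with 30 genes, immunoglobulin heavy chain variable segments on chromosome 3 with 28 genes and gamma crystallins on chromosome 9 with 17 genes. The longest detected rows held 18 genes, on chromosomes 19 and 22, and the first of them includes ntla, hdac1 and eif3i, which are not close relatives.

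Names and locus length went with detection. Of 16371 genes whose symbol is protein-coding in RefSeq, 56.5% were detected and 21.1% silent, against 30.2% and 42.5% of the 11398 genes with no RefSeq symbol. Of genes with loci under 1000 bp 18.6% were detected, and of those with loci of at least 5000 and under 20000 bp 51.8%.

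The controls agreed closely where levels were high. Of 13116 genes with a mean of at least 1 FPKM, 97.4% were within 1.5-fold between the libraries, and 50, or 0.381%, were more than 2-fold apart on the scale of log2(FPKM + 0.5). That count was 24 with a pseudocount of 1 FPKM and 102 with 0.1 FPKM. The median half-width of the deposited 95% interval, relative to the value, was 0.804% in control 1 for genes of 1000 FPKM or more, 12.7% for genes of 1 to 10 FPKM and 44.4% for genes of 0.1 to 1 FPKM. Read totals are not in the table. The commonest ratio among 2043 low values put the depth of control 2 at 0.841 of that of control 1.

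Of the genes that differed most, msgn1, which acts in presomitic mesoderm, had 21.6 and 47.9 FPKM. In the other direction, egfl6 had 20.3 and 8.81 FPKM, ripply3, a gene of pharyngeal and placodal tissue, had 7.23 and 3.65 FPKM, and col7a1l, a collagen VII gene of skin anchoring fibrils by its name, had 7.06 and 3.70 FPKM. Several genes of this set, such as si:ch211-255f4.8 with 865 and 392 FPKM, had values far above their own intervals, which for that gene in control 1 ran from 2.09 to 6.44 FPKM. The values of msgn1 and of egfl6, a locus of 353 bp, also lay above their intervals in both controls, and that of ripply3 in control 1.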

How the data were processed

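The members and gene lists were chosen with earlier results of these data known. FPKM per gene, with 95% bounds and an estimate status, were deposited by the authors in 1 table, where, per the file headers, the value columns carry the title RPKM and a stray last line the title FPKM. Cuffdiff 2.0.2, Cufflinks 2.1.1, TopHat2 2.0.8 and TopHat, and the danRer7 (Zv9) build, are named in the submitters' processing notes without role or order. Strand use and the treatment of reads that fit several places are not given in the sources used here, so overlapping, antisense and near-identical genes are uncertain. Per the labels' protocols, polyadenylated RNA was made into TruSeq libraries and sequenced in paired ends.

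Values were used as deposited with Python 3.11.15, pandas 2.3.3, numpy 2.4.6 and matplotlib 3.10.9; read counts were not recovered. With 1 group of 2 libraries no test was made. Limits were 1, 0.1 and 100 FPKM in both controls, a locus of 300 bp and a pseudocount of 0.5 FPKM; the functions were tested on simulated data. Loci were shifted to count from 1. Of 768 list entries in 31 lists, 652 were matched by table symbol, 40 by the current symbol of the gene ID and 14 by a RefSeq synonym, 31 were not matched, 2 (krt18 and mcm4) were left out by status and 29 repeated a member under a further name. Where a name had several loci, lists and pairs took the longest. Pairs were symbols that end in a and b. Left out were 174 pairs whose letters name separate genes in mammals.

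Genes named were the 25 with the highest lower value, up to 5 highest and 5 lowest of each list with others inside the account of a list, the 15 most unequal and 8 most balanced pairs, the 10 per direction most apart between controls at a mean of 5 FPKM or more, and up to 3 of each family. hoxb10a and the genes of chromosome rows and of the chromosome 4 stretch were chosen after their values were seen.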

Additional observations from a re-analysis of the deposited data

How the results depend on the processing

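No paired analysis was possible because only 1 group, the controls, was used. Of 76 recomputed main counts and shares, 49 stayed within their limits and 27 moved. The limit was a factor of 1.5 for counts and the SD of the 2 controls for shares. Detected genes ran from 10918 to 14482 and pairs at least 4-fold unequal from 439 to 605. Some of the 49 could not move: mitochondrial and ribosomal shares from 1 control alone, and the pair count with no minimum level. For the 27 that moved the cause was not tested. Silent genes were 12563 with no locus minimum and 4137 at a limit of 0. Abundant genes were 1782 at a limit of 50 FPKM and 518 at 200 FPKM. The 100 highest genes held 57.1% of the sum with no locus minimum, 42.2% at a minimum of 1000 bp, 41.8% without mitochondrially encoded genes and 41.8% with interval midpoints. Mitochondrially encoded genes held 3.52%, 1.72%, 5.23% (left out of the denominator) and 3.21% in the same order, and ribosomal protein genes 16.5%, 28.7% and 28.9% in the first 3. Genes more than 2-fold apart between controls, 50 as reported, were 102 at a pseudocount of 0.1 FPKM, 24 at 1 FPKM, 8 at a mean of 5 FPKM or more, 109 with no minimum mean, 157 with no locus minimum and 33 with midpoints. The detected share on chromosome 4 was 33.8% at 0.5 FPKM, 21.7% at 2 FPKM, 17.7% with no locus minimum, 28.4% at 1000 bp and 28.0% to 28.7% from 1 control alone. Of 155 recomputed list counts 143 stayed within 1.5 times and 12 moved, mostly in lists with few detected genes.

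Interval midpoints, the unfiltered set of pairs and all alternatives for list counts were chosen after seeing the data. Total read depth is unknown, so a level under 0.1 FPKM gives no limit on the RNA present. With 2 libraries of 1 group, no difference between the controls has a test.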
